A study of Mus musculus with 3 samples.

Results

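The complement components and regulators measured here are 9 mouse genes, C3, C2, C4b, Cfb, Cfi, C1ra, Masp1, Cd55 and Cd59a, in kidney cells given calcitriol, calcidiol or vehicle. They were taken by name: every spot that is not a control and whose gene name is that of a member was used, which gave 20 probes of 56605 on the array, and 9 genes of 37008 gene names. The set was chosen by differences already seen on these same arrays, so its values are a description. C3 messenger RNA was 6.43-fold higher with calcitriol and 4.67-fold higher with calcidiol than with vehicle. By the brightest probe of each gene, it was the 1 member at least 2-fold higher with either hormone among those measured on both arrays. The 1 measured Masp1 probe was 7.85-fold lower with calcitriol and 2.52-fold lower with calcidiol. Cd59a and C1ra lay within 2-fold of vehicle by their brightest probes, though a dimmer Cd59a probe was 2.26-fold higher with calcidiol. No C2 or Cfi probe passed the detection call on any of the 3 arrays.

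Complement is a cascade of plasma and cell-surface proteins that marks particles for uptake, recruits inflammatory cells and can lyse membranes. The classical pathway (C1q with the proteases C1r and C1s) and the lectin pathway (mannose-binding lectin or ficolins with the MASP proteases) cleave C4 and C2 to build an enzyme, the C3 convertase, and the alternative pathway builds another from C3 itself and factor B. Host cells limit the cascade with soluble factors such as factor I and with membrane proteins such as CD55 and CD59, and kidney tubule cells are known to be able to make C3 themselves.

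The cells were mpkDCT, an established mouse kidney line of distal convoluted tubule origin. All 3 groups carried a CRISPR-Cas9 knockout of Cyp27b1, whose enzyme converts calcidiol (25(OH)D3) into calcitriol (1,25(OH)2D3), the form that binds the vitamin D receptor most tightly. The groups were calcitriol at 1e-07 M, calcidiol at 1e-07 M and vehicle, each given for 24 h in medium without phenol red, with 2% serum that had been charcoal-stripped, and each was measured on 1 one-colour Agilent array. In all 3 groups the medium was changed 24 h before treatment. All 3 sample titles carry a tag, siCT, whose meaning is unexplained, so a further agent shared by the groups may be present. The calcidiol sample's description writes the compound as 25(OH)2D3, while its treatment label, followed here, writes 25(OH)D3. No unedited cells are among the samples, and the sources used here do not say whether the knockout line is a single clone.

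With 1 array per group there is no replicate check, no test was run and no p-value is given. Signals are Agilent's processed signal, the brightness of a spot after background subtraction, on a linear scale. Log2 differences are taken after each array's 75th percentile of signal was subtracted on the log2 scale, and the ± beside them is the scanner software's own error for each spot and says nothing of how cultures vary. A probe counts as well above background by the scanner's own call. Where a probe passed on only 1 of a pair of arrays, the difference is given as a bound, in which the dim spot is set to its own signal or to the lowest passing signal of its array, whichever is larger. The brightest probe stood for a gene. Levels of probes of different genes are not compared, except in the sums over cell type markers, which also include spots that did not pass.

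The arrays passed 49.9% of spots for calcitriol, 49.7% for calcidiol and 51.0% for vehicle, and their lowest passing signals were 13.82, 17.85 and 13.36 in the same order of groups. Cyp24a1, the vitamin D catabolic enzyme and a standard target of the receptor, had signals of 5443 with calcitriol, 288 with calcidiol and 2.68 with vehicle, where it was not well above background. It was at least 398-fold higher with calcitriol and at least 20.0-fold higher with calcidiol than with vehicle. Cyp27b1 itself did not pass on any array (7.05, 3.82 and 2.91 for calcitriol, calcidiol and vehicle), and where its probe lies relative to the edit is not given, so it does not check the knockout. Of 6 distal convoluted tubule markers, 2 passed with calcitriol, 2 with calcidiol and 1 with vehicle, and Slc12a3, the defining sodium-chloride cotransporter, passed on none. Among kidney epithelial markers, Cdh16, Pax8 and Pax2 passed on all 3 arrays, and Cdh1, Epcam, Krt8 and Krt18 passed on none.

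Detection decides how much can be said of each member. Of the 20 probes, 8 were well above background with calcitriol, 6 with calcidiol and 8 with vehicle, and those that passed on all 3 arrays belong to C3, C1ra, Masp1 and Cd59a. These probes are 60-base oligonucleotides, and 4 whose letters bear on the reading of their gene are shown as in the deposited scanner files, with positions on the mm9 build that those files use. The C3 probe is shown because C3 has the highest difference from vehicle among the measured members, and it lies at chr17:57343678-57343737 on the minus strand. The C4b probe, at chr17:34866361-34866420 on the minus strand, is shown because the files list it for C4a as well, a near-identical neighbouring gene. The Cfb probe is shown because its 60 bases span 357 bases of genome, chr17:34993502-34993858 on the minus strand, as a probe across a splice junction does. The Masp1 probe, at chr16:23452460-23452519 on the minus strand, is shown because it is listed for the curated RefSeq transcript NM_008555 and was not well above background, unlike another Masp1 probe described with that gene.
C3: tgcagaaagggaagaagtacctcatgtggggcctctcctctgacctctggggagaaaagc
C4b and C4a: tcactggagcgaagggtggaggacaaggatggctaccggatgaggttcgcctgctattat
Cfb: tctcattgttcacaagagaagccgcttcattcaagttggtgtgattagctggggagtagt
Masp1: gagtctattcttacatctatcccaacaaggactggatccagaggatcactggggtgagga

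**Figure D1:**
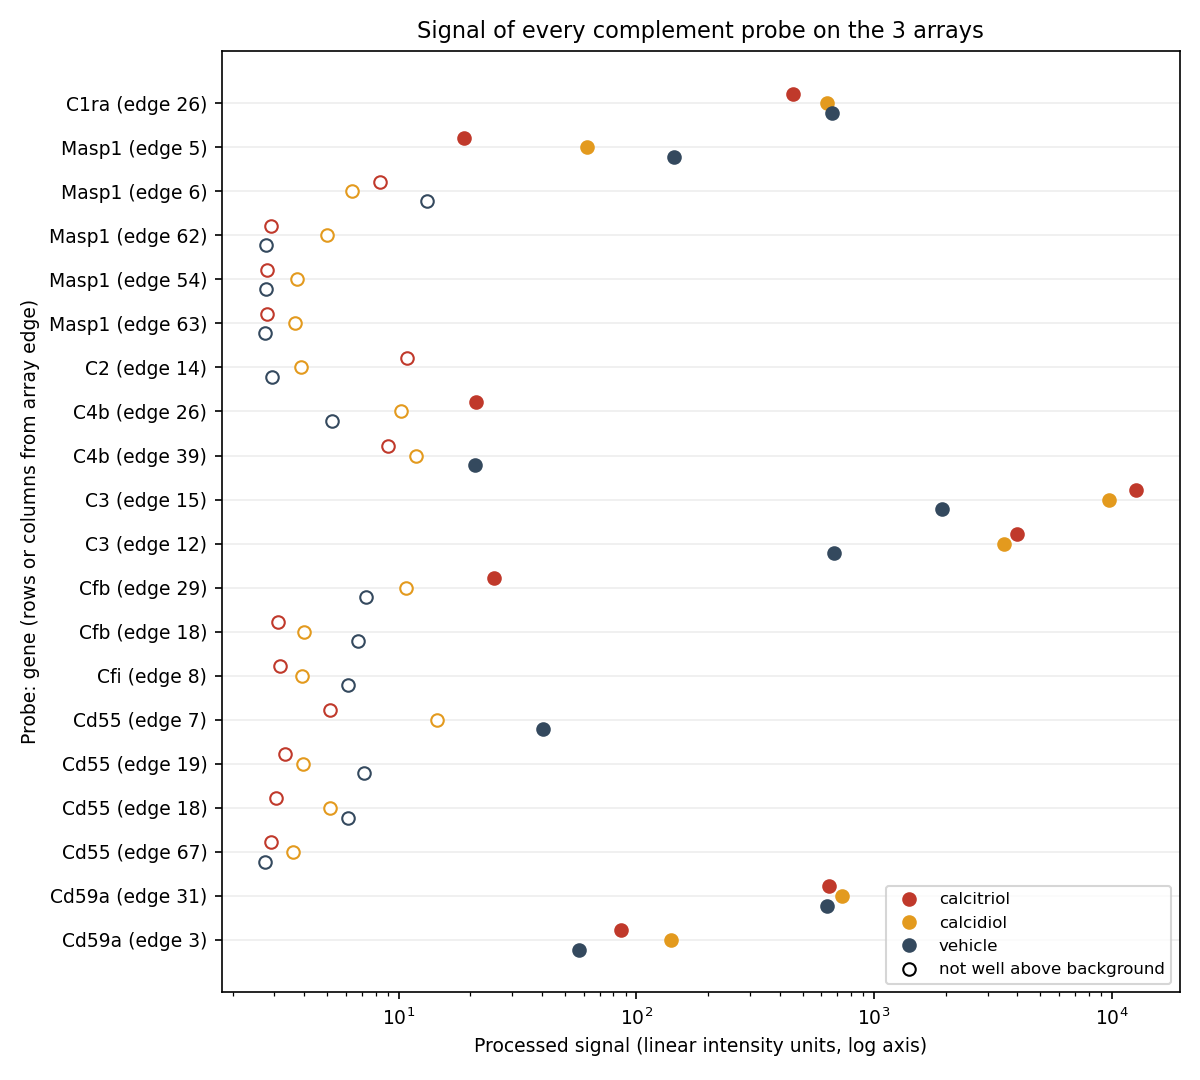
Processed signal (linear units on a log axis) of the 20 probes of the 9 members on the calcitriol, calcidiol and vehicle arrays, with 1 point per array; open points were not well above background, and each label gives the rows or columns between the spot and the array edge. Both C3 probes were brighter on the 2 hormone arrays than on the vehicle array (12666, 9717 and 1926 for the brighter probe), and most other members' probes lie at or below the lowest passing signals.

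C3, the protein on which all pathways converge and whose cleavage starts opsonisation, was read by 2 probes. The brighter one, at chr17:57343416-57343475 on the minus strand, had signals of 12666 with calcitriol, 9717 with calcidiol and 1926 with vehicle. Its log2 difference was 2.68 ± 0.20 for calcitriol against vehicle, 2.22 ± 0.20 for calcidiol against vehicle and 0.46 ± 0.20 for calcitriol against calcidiol. Both hormone arrays were high and vehicle was low. The other probe, whose letters stand above, had 4000 with calcitriol, 3533 with calcidiol and 679 with vehicle, and log2 differences of 2.52 ± 0.20, 2.27 ± 0.20 and 0.26 ± 0.20 for the same comparisons. The probes thus gave the same order of arrays, and on both the 2 hormones lay closer to each other than either lay to vehicle. The hormones differed by 1.38-fold on the brighter probe and 1.19-fold on the other. These spots lie 15 and 12 rows or columns from the array edge (the outermost being 1), and the median differences of their neighbouring spots for calcitriol against vehicle were 0.06 and 0.01. For calcidiol against vehicle those medians were -0.08 and 0.04. For calcitriol against calcidiol they were 0.10 and -0.04, and subtracting them left 0.36 and 0.30.

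Among all genes measured on both arrays of a pair, 0.961% were at least 2-fold higher with calcitriol than with vehicle (160 of 16654) and 0.853% were at least 2-fold higher with calcidiol than with vehicle (142 of 16648). Among the 4 members measured in each comparison, 1 was higher in this sense, C3. By size, C3 stood 22nd from the highest of the 16654 genes for calcitriol against vehicle and 12th of the 16648 for calcidiol against vehicle. Against each other, the 2 hormones gave 0.467% of 16500 genes higher with calcitriol by 2-fold or more and 1.41% lower by as much. C3 was in neither class, and it ranked 722nd from the highest.

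The other convertase members were at the limit of detection. Factor B, encoded by Cfb, supplies the protease of the alternative pathway's convertase. Its junction probe had signals of 25.2 with calcitriol, 10.7 with calcidiol and 7.29 with vehicle, and it was well above background only with calcitriol. That is a bound of at least 1.85-fold higher with calcitriol than with vehicle and at least 1.49-fold higher with calcitriol than with calcidiol. The second Cfb probe, at chr17:34994617-34994676 on the minus strand, gave 3.11 with calcitriol and 6.76 with vehicle, with calcidiol between them, and passed on no array. The order of arrays on this dim probe was the opposite one. No member was at least 2-fold higher by its bound in any comparison, a class that held 6.96% of 1135 genes for calcitriol against vehicle, 10.8% of 1198 for calcidiol against vehicle and 3.65% of 1151 for calcitriol against calcidiol.

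C4b encodes mouse C4, which classical and lectin proteases cleave. The probe shared with C4a gave 21.2 with calcitriol, 10.2 with calcidiol and 5.25 with vehicle, and passed only with calcitriol, a bound of at least 1.55-fold higher than vehicle. The probe at chr17:34865367-34865426 on the minus strand gave 8.98 with calcitriol, 11.8 with calcidiol and 21.0 with vehicle, and passed only with vehicle, a bound of at least 1.55-fold lower with calcitriol and 1.27-fold lower with calcidiol. These 2 probes of the gene point in opposite directions, so no direction is given for C4b against vehicle. C2, the protease that joins C4 in the classical convertase, had 1 probe (chr17:34999575-34999634, minus strand) with signals of 10.9, 3.88 and 2.92 for calcitriol, calcidiol and vehicle, none of them well above background. No difference in C2 could be measured at these signals.

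C1ra encodes C1r, the protease that activates C1s in the first classical complex. Its 1 probe, at chr6:124473052-124473111 on the plus strand, had 455 with calcitriol, 635 with calcidiol and 667 with vehicle. Calcitriol was the low array, with a log2 difference from vehicle of -0.58 ± 0.20, while calcidiol differed from vehicle by -0.18 ± 0.20, less than the scanner error. The difference between calcitriol and calcidiol was -0.40 ± 0.20. The C1r and C1s genes stand next to each other on chromosome 6 in the order C1rl, C1ra, C1s1, C1rb and C1s2, with the pseudogene Gm18840 between C1s1 and C1rb. C1ra with C1rb, and C1s1 with C1s2, are near-identical copies, so a probe of one may also bind RNA of the other.

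Of the neighbours, C1s1, a copy of the C1s protease gene, had signals of 116 with calcitriol, 266 with calcidiol and 245 with vehicle. Its log2 difference was -1.11 ± 0.21 for calcitriol against vehicle, 0.01 ± 0.21 for calcidiol against vehicle and -1.12 ± 0.21 for calcitriol against calcidiol. C1s2, the other copy, had 89.3 with calcitriol, 164 with calcidiol and 194 with vehicle, and log2 differences of -1.15 ± 0.21, -0.36 ± 0.21 and -0.80 ± 0.21 for the same comparisons. In both, calcitriol was the low array and calcidiol lay nearer to vehicle. C1rb had 55.3 with calcitriol, 67.3 with calcidiol and 86.1 with vehicle on its brighter probe, log2 differences of -0.67 ± 0.23 and -0.47 ± 0.23 from vehicle for calcitriol and calcidiol, and its other probe gave -0.29 and -0.31. C1rl, a C1r-like protease gene, was the exception in the cluster, with 52.3, 48.0 and 40.0 for calcitriol, calcidiol and vehicle and a log2 difference of 0.35 ± 0.25 for calcitriol against vehicle.

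Masp1 encodes proteases of the lectin pathway and was read by 5 probes, of which 1 passed on any array. That probe, at chr16:23468544-23468603 on the minus strand, had 18.7 with calcitriol, 61.7 with calcidiol and 144 with vehicle. Vehicle was the high array and calcitriol the low one, with calcidiol between them. Its log2 difference was -2.97 ± 0.32 for calcitriol against vehicle, -1.33 ± 0.23 for calcidiol against vehicle and -1.64 ± 0.33 for calcitriol against calcidiol. The calcitriol signal was close to the lowest passing signal of its array, 13.82. The files list the probe for predicted transcripts of the gene and for the cDNA records AK031598 and AB049755, but not for NM_008555, whose probe gave 2.91 with calcitriol, 5.02 with calcidiol and 2.76 with vehicle. The remaining 3 probes, at chr16:23449609-23449668, chr16:23479833-23479892 and chr16:23490405-23490464 on the minus strand, had signals of 2.75 to 13.2 and passed on no array. The measurement of Masp1 therefore rests on 1 probe.

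Masp1 was the 1 measured member at least 2-fold lower in each of the 3 comparisons, where 1.63% of all genes were that much lower for calcitriol against vehicle (271 genes), 0.144% for calcidiol against vehicle (24 genes) and 1.41% for calcitriol against calcidiol (232 genes). It ranked 3rd from the lowest for calcitriol against vehicle and 7th from the lowest for calcidiol against vehicle. Its spot lies 5 columns from the array edge. At that distance 3.50% of 400 measured probes were at least 2-fold lower with calcitriol than with vehicle, against 1.18% of 19421 probes more than 15 rows or columns in. For calcidiol against vehicle the same shares were 0.250% and 0.109%. For calcitriol against calcidiol they were 4.05% of 395 probes and 0.864% of 19101. The median difference of the spots around the Masp1 probe was -0.05 for both hormones against vehicle, and subtracting it left -2.92 and -1.28. For calcitriol against calcidiol that median was -0.10, and subtracting it left -1.55.

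**Figure D2:**
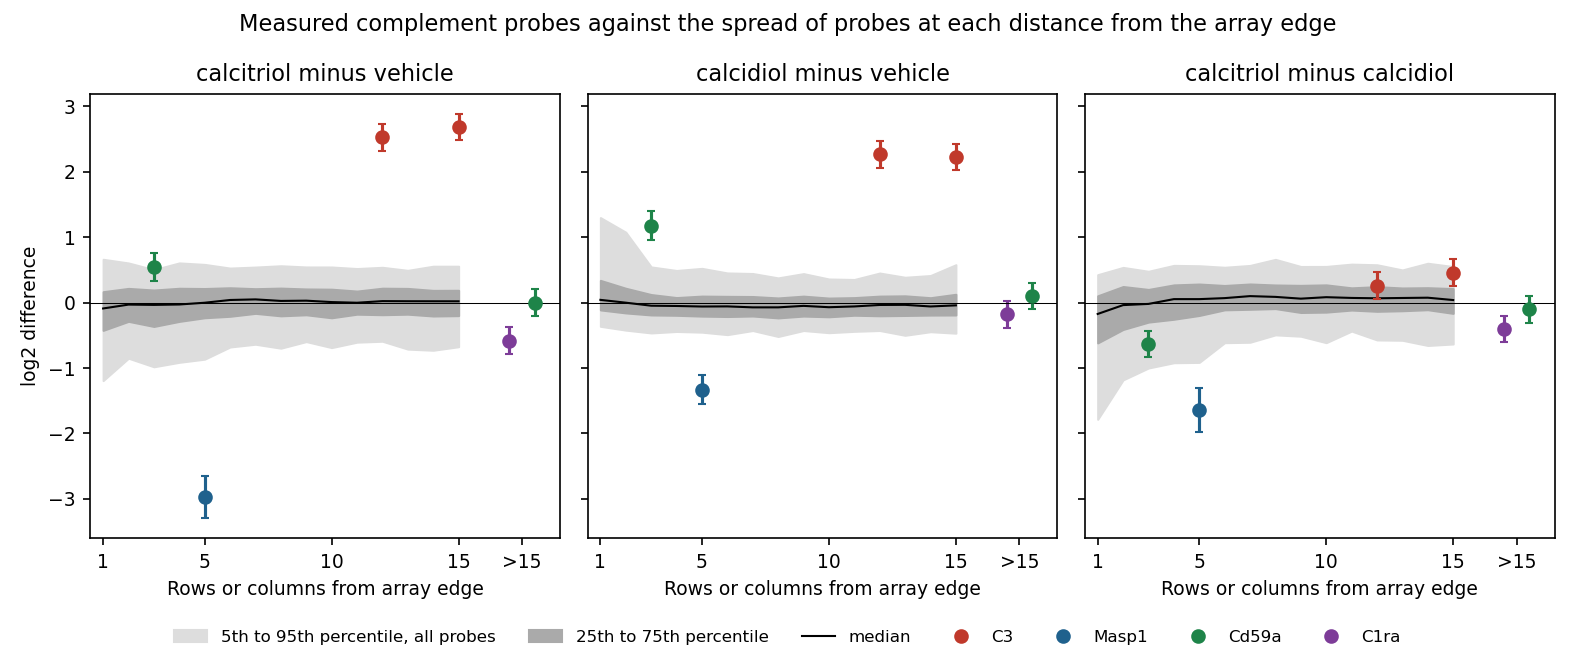
Log2 difference of the members' probes that passed on both arrays (coloured points, bars are the scanner error) against their distance from the array edge in rows or columns, with grey bands for all probes at each distance (5th to 95th and 25th to 75th percentiles) and a black line for the median. The C3 probes at 12 and 15 lie above the bands in both hormone-against-vehicle panels, the Masp1 probe at 5 lies below the bands in all 3 panels, and the Cd59a probe at 3 departs from its partner at 31; points farther than 15 are drawn at the right-hand end.

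The passing markers of fibroblasts, a cell type known to make C1r and C1s, were lower on both hormone arrays than on the vehicle array. With calcidiol, the log2 differences from vehicle were -0.18 for C1ra, -0.47 for C1rb, 0.15 for C1rl, 0.01 for C1s1 and -0.36 for C1s2. With calcitriol, those of the same genes in that order were -0.58, -0.67, 0.35, -1.11 and -1.15. Of 5 such markers 3 passed on all 3 arrays (Col1a1, Dcn and Postn), and Pdgfra and Pdgfrb, the defining receptors, passed on none. The sum over the 5 markers of signal divided by each array's 75th percentile was 1.09 with calcitriol, 2.39 with calcidiol and 5.55 with vehicle. Postn, which encodes the matrix protein periostin, made up most of that sum, with signals of 272 with calcitriol, 707 with calcidiol and 1647 with vehicle. The sum for 6 macrophage and monocyte markers, of which 4 passed with calcitriol, 5 with calcidiol and 5 with vehicle and Adgre1 on none, was 7.38 with calcitriol, 8.41 with calcidiol and 7.99 with vehicle. Csf1r and Cd14 made up most of that sum, with signals of 1349 with calcitriol, 1916 with calcidiol and 1570 with vehicle for Csf1r, and of 1001 with calcitriol, 883 with calcidiol and 938 with vehicle for Cd14. The Csf1r spot lies 2 rows or columns from the array edge. At that distance 5.80% of 362 measured probes were at least 2-fold higher with calcidiol than with vehicle. Of 19257 probes more than 15 rows or columns in, 0.571% were. The sum for 3 endothelial markers was 0.20 with calcitriol, 0.30 with calcidiol and 0.35 with vehicle, with Pecam1 and Cdh5 not well above background. The part of these cell types in the C3, Masp1 and C1r/C1s differences was not tested, and fewer cells of a type and less RNA per cell cannot be told apart.

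Among the regulators, Cd59a encodes the membrane inhibitor of the lytic pore. Its brighter probe, at chr2:103954688-103954747 on the plus strand, had 647 with calcitriol, 733 with calcidiol and 633 with vehicle. The 3 arrays were close, with log2 differences of -0.00 ± 0.20 for calcitriol against vehicle, 0.10 ± 0.20 for calcidiol against vehicle and -0.10 ± 0.20 for calcitriol against calcidiol. The second probe, at chr2:103954170-103954229 on the plus strand, had 85.8 with calcitriol, 140 with calcidiol and 57.3 with vehicle, with log2 differences of 0.55 ± 0.21, 1.18 ± 0.23 and -0.63 ± 0.20. On this probe calcidiol was 2.26-fold higher than vehicle. The probes disagree, and the second spot lies 3 rows from the array edge, where 2.03% of 394 probes were at least 2-fold higher with calcidiol than with vehicle, against 0.571% of 19257 probes more than 15 rows or columns in. The median difference of the spots around it was 0.08 for calcidiol against vehicle, and subtracting it left 1.10. Why the 2 probes differ was not tested.

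Cd55 encodes the membrane protein that takes C3 convertases apart. Of its 4 probes 1 passed, at chr1:132335716-132335775 on the minus strand, with 5.13 for calcitriol, 14.5 for calcidiol and 40.4 for vehicle. Only the vehicle spot was well above background, which bounds the difference at no less than 2.99-fold lower with calcitriol and 2.44-fold lower with calcidiol. Of the genes that passed on 1 array of the pair, 9.52% were at least 2-fold lower by their bound with calcitriol (108 of 1135) and 2.34% with calcidiol (28 of 1198). Cd55 was the 1 member of this class in both comparisons, and no member was in it for calcitriol against calcidiol, where it held 13.7% of 1151 genes. The spot lies 7 rows from the edge. Of the probes at that distance that passed on both arrays, 1.81% of 387 were at least 2-fold lower for calcitriol against vehicle and 0 of 389 for calcidiol against vehicle. This Cd55 probe is not of that class, so its bound cannot be set against those shares. The other 3 Cd55 probes gave 2.75 to 7.14 and passed on no array. Cfi, whose protease inactivates cleaved C3 and C4 with cofactors, had 1 probe (chr3:129578111-129578170, plus strand) with 3.17, 3.92 and 6.10 for calcitriol, calcidiol and vehicle, none well above background.

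The members were set in a list of 57 genes of the system, of which 55 were on the array. For calcitriol against vehicle 16 were measured: C3 was the 1 higher by 2-fold or more, Masp1, C1s1 and C1s2 were the 3 lower by as much, and the median log2 difference was -0.16, beside -0.00 over all 16654 genes. For calcidiol against vehicle 18 were measured, with C3 higher and Masp1 lower by 2-fold or more and a median of -0.12, beside -0.01 over all 16648 genes. For calcitriol against calcidiol 16 were measured, none higher and 2 lower by 2-fold or more (Masp1 and C1s1), with a median of -0.03 beside 0.00 over all 16500 genes. The comparisons with vehicle share the vehicle array, so they are not independent of each other.

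By role, 5 genes of classical recognition and its proteases were measured for calcitriol against vehicle, 4 of them below 0, beside 8446 of all 16654 genes. These 4 are C1ra with C1rb and C1s1 with C1s2, near-identical copies, so they may not be separate readings. In the lectin pathway only Masp1 was measured of 8 genes on the array, and Masp2, Mbl1, Mbl2 and the ficolins were not well above background. Of 7 convertase components C3 and Cfp were measured, and Cfp, which encodes the convertase-stabilising protein properdin, had 535 with calcitriol, 407 with calcidiol and 402 with vehicle, a log2 difference of 0.38 ± 0.20 for calcitriol against vehicle. Its second probe gave 89.1, 72.6 and 52.9 for the same groups, a difference of 0.72. Of 7 terminal components C8g was the 1 measured for calcitriol against vehicle, and it was the lowest gene outside the members for calcidiol against vehicle, at -0.54 ± 0.22 (86.6 with calcitriol, 93.2 with calcidiol and 125 with vehicle). C7, another terminal component, was the highest outside the members for calcidiol against vehicle, at 0.25 ± 0.41, with a calcidiol signal of 20.5, a difference below its error. C5ar2, a receptor for the C5a fragment, was the highest outside the members for calcitriol against vehicle, at 0.87 ± 0.29, and for calcitriol against calcidiol, at 0.70 ± 0.30. Its signals were 40.8 with calcitriol, 26.5 with calcidiol and 21.8 with vehicle, and the receptor C3ar1 for the C3a fragment was not well above background.

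**Figure D3:**
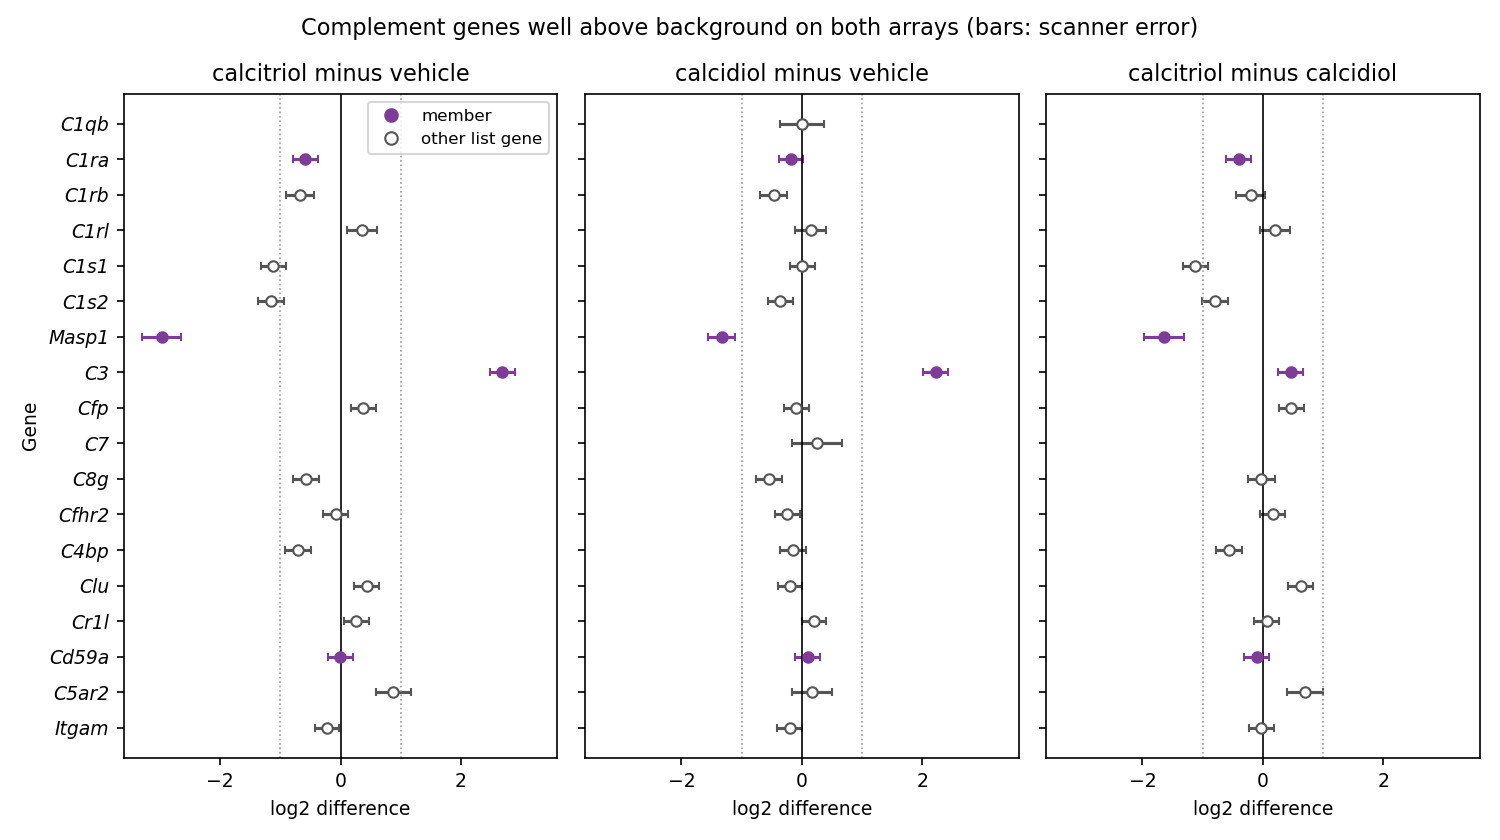
Log2 difference of each complement gene that passed on both arrays of a pair, for calcitriol against vehicle, calcidiol against vehicle and calcitriol against calcidiol; filled points are the members, open points the other listed genes, and bars the scanner error. C3 stands at 2.68 and 2.22 against vehicle, Masp1 at -2.97 and -1.33, and C1s1 and C1s2 lie at -1.11 and -1.15 for calcitriol and at 0.01 and -0.36 for calcidiol.

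The genes whose 2 differences from vehicle lay nearest to those of C3, by straight-line distance among 12822 genes with a RefSeq symbol measured on all 3 arrays, were Mgll, Srgap3, Dmpk, Krt20 and Cnn1. Mgll, which encodes monoglyceride lipase, had log2 differences of 2.76 for calcitriol and 2.12 for calcidiol, a distance of 0.13 from C3. The other 4 had 2.23 to 3.12 for calcitriol and 1.88 to 2.03 for calcidiol. Cnn1, the calponin gene, was the farthest of the 5 at 0.54.

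The C3 promoter is printed because C3 is the measured member with the highest difference from vehicle, and because C/EBP factors are known regulators of C3 in other cells. Cebpd, which encodes C/EBP delta, had signals of 3770 with calcitriol, 2868 with calcidiol and 400 with vehicle, log2 differences of 3.20, 2.73 and 0.47 for calcitriol against vehicle, calcidiol against vehicle and calcitriol against calcidiol. Both hormone arrays were high for this gene. Cebpb, which encodes C/EBP beta, had 3883, 3792 and 2583 for calcitriol, calcidiol and vehicle, and log2 differences of 0.55, 0.44 and 0.11. Whether either factor has a part in the C3 difference was not tested. The sequence covers the 250 bases before the C3 start in RefSeq on GRCm38.p6 (chr17:57228137-57228386, minus strand, read 5′ to 3′), a build other than that of the probes. Capitals mark, in order, the nuclear receptor half-site AGGTCA, the vitamin D response element half-site GGTTCA and the fixed bases of a C/EBP match to TTGCNNAA.
C3 promoter: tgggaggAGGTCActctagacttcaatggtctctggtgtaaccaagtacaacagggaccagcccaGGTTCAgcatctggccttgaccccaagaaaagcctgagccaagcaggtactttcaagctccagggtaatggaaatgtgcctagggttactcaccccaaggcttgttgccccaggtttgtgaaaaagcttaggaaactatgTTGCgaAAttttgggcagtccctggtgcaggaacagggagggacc

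The C/EBP match lies 45 to 38 bases before the start, AGGTCA 243 to 238 and GGTTCA 185 to 180. Both strands were searched in windows of this length for 32851 promoters. TTGCNNAA occurred in 9.56% of them, AGGTCA in 14.0% and GGTTCA in 8.85%, so none of the 3 is rare. A direct repeat, 2 copies of GGTTCA with any 3 bases between, occurred in 0.00609% of promoters, and an NF-kappaB motif (GGG, any 2 bases, TTTCC) in 1.41%, and neither is in the C3 window. The repeat in this exact spelling is so rare that its absence there tells nothing of vitamin D response elements. Of the 9 members, 4 had a promoter in the table (C3, C1ra, Cd55 and Cd59a), and those of C1ra, Cd55 and Cd59a held no match to any of the 5 motifs. Among the other C1r and C1s genes, C1rb, C1rl and C1s1 held a C/EBP match and C1rl an AGGTCA match. A match is a description of letters, not evidence of binding.

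**Figure D4:**
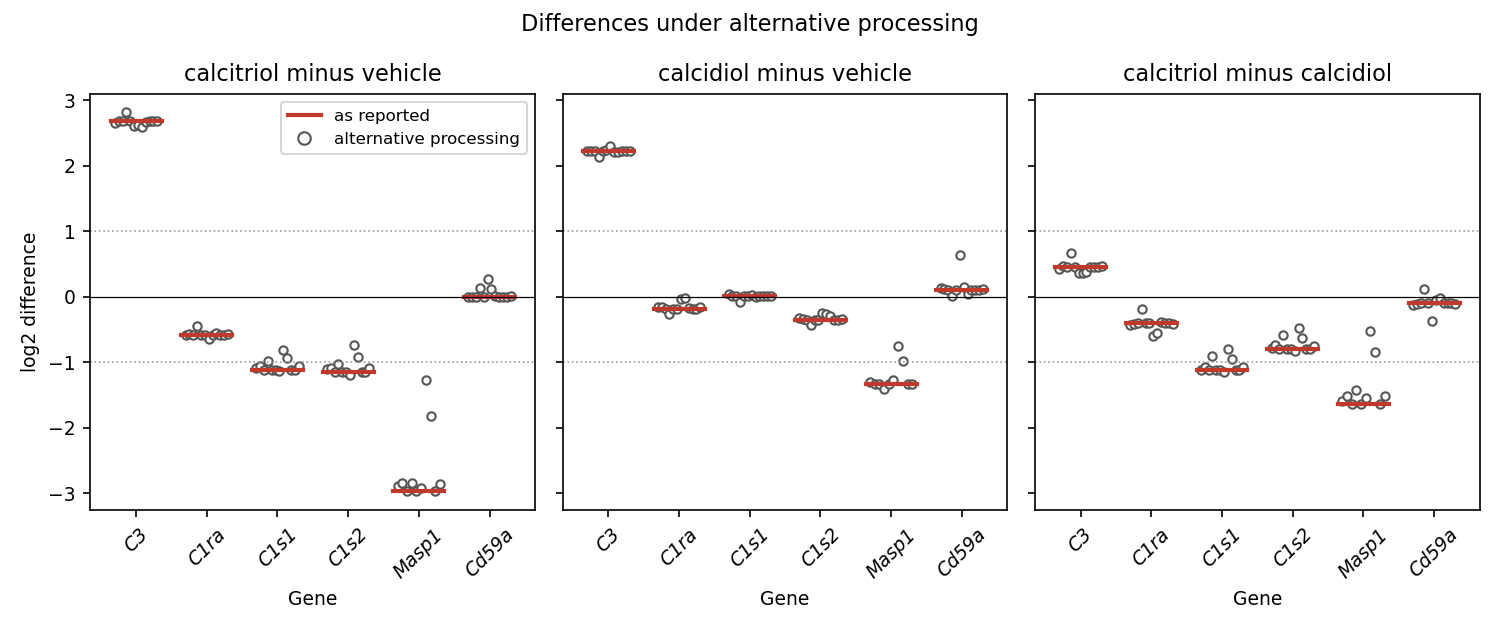
Log2 differences of C3, C1ra, C1s1, C1s2, Masp1 and Cd59a in the 3 comparisons, with a red line for the value as reported, open points for each alternative processing and dotted lines at 2-fold. C3 against vehicle stayed at 2.59 to 2.81 for calcitriol and 2.14 to 2.31 for calcidiol, while Masp1 spread from -2.97 to -1.27 for calcitriol against vehicle.

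Across the 12 alternative processings that give C3 a difference, its value was 2.59 to 2.81 for calcitriol against vehicle and 2.14 to 2.31 for calcidiol against vehicle. Its difference between calcitriol and calcidiol was 0.36 to 0.67. Masp1 had a value under 10, all below 0, and spread from -2.97 to -1.27 for calcitriol against vehicle and from -1.41 to -0.75 for calcidiol against vehicle. It has no value when the outermost 6 rows and columns, or genes below the 25th percentile of signal, are left out. C1s2 was at least 2-fold lower with calcitriol than with vehicle under 10 of 12 and C1s1 under 9 of 12. These counts include alternatives that leave each gene's only passing probe and its scaling unchanged, and so could not move the value. C1s2 fell short of 2-fold after normexp background correction (-0.73) and an offset of 32 (-0.93). C1s1 fell short after the same changes (-0.81 and -0.94) and after median centring (-0.98).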

How the data were processed

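The deposited scanner files of 3 one-colour arrays hold linear spot intensity. Background was subtracted, and probes placed on mm9, by Agilent Feature Extraction, version 10.7.1.1 per the file headers and 9.5.1.1 per the submitters' processing notes. Per the file headers the 3 arrays shared 1 slide and 1 scan, so each array's position on the slide and its group cannot be told apart. A deposited value table of intensity, normalised with a tool not given in the sources, was used for 1 alternative.

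Of 62976 spots on an array, 59305 are not controls. Spots with outlier flags were left out (1489 probes) and no spot was saturated. From the deposited intensity, log2 signals less each array's 75th percentile (379.8 for calcitriol, 400.8 for calcidiol, 371.1 for vehicle) were computed. The 75th percentile was taken over all spots that are not controls. Probes carry the gene name of the array design, and 58.29% were named through their accession in RefSeq (GRCm38.p6). Differences of at least 2-fold were counted, and no test was run. The number of arrays, 1 per group, limits precision. Probes printed at several spots gave a median SD of the log2 difference between spots of 0.11 for calcitriol against vehicle (258 probes), 0.09 for calcidiol against vehicle (246) and 0.12 for calcitriol against calcidiol (262).

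The members, the gene lists and the rule for naming genes were chosen with earlier results of these data known. The rule names every member, other listed genes at least 2-fold apart or highest or lowest in a comparison, the 5 genes nearest to C3, and Cyp27b1, Cyp24a1, Cebpb and Cebpd. C1rb and C1rl as neighbours of C1ra, and Cfp as the other measured convertase component, were named after their values were seen. Alternatives were median, quantile and cyclic loess scaling, normexp with an offset of 50, an offset of 32, detection on 1 array, dim genes left out, outlier spots kept, the mean over a gene's probes, the deposited value table, 1.5-fold and 3-fold thresholds, the outermost 6 rows and columns left out, and the median of spots within 5 rows and columns subtracted. Counting was also tested on simulated data. Values were computed in Python 3.11.15 (numpy 2.4.6, pandas 2.3.3, matplotlib 3.10.9), and quantile, loess and normexp values in R 4.3.3 (limma 3.58.1). Some marker values are not reported here.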

Additional observations from a re-analysis of the deposited data

How the results depend on the processing

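No paired analysis was possible because each group has 1 array. Of 210 values of single members and of C1s1 and C1s2 under the alternatives, 190 moved by less than the median scanner error over all measured probes of their comparison, 0.205 in each, and 20 by more. Part of the 190 could not move, because some alternatives leave a gene's probe and its scaling unchanged. Cd59a for calcitriol against calcidiol was 0.11 after median centring and -0.10 as reported, both smaller than the median scanner error. The counts of members and of listed genes depend on the treatment of dim probes. For calcitriol against vehicle, 2 members were at least 2-fold higher and 3 lower when detection on 1 array was enough, and 0 were lower with dim genes or the outermost 6 rows and columns left out. Where detection on 1 array was enough, signals that did not pass were used as they stand, not as bounds. The members this added were Cfb, Cd55 and C4b, the last by 1 of its probes, which point in opposite directions. Of the listed genes, 2 were higher after median centring, at a 1.5-fold threshold or with detection on 1 array. The lower listed genes numbered 1 after normexp, an offset of 32 or a 3-fold threshold, 5 at 1.5-fold and 7 with detection on 1 array, which also moved the list's median to -0.58.

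For calcidiol against vehicle, 0 members and 0 listed genes were lower after normexp, an offset of 32, a 3-fold threshold, or with dim genes or the outermost rows and columns left out. With detection on 1 array 2 members and 3 listed genes were lower, and 2 listed genes higher. For calcitriol against calcidiol, 2 members and 2 listed genes were higher with detection on 1 array, as were 2 listed genes at 1.5-fold. The lower members numbered 0 after normexp, an offset of 32, or without dim genes or the outermost rows and columns. The lower listed genes numbered 0 after normexp or an offset of 32, 1 after median centring, at 3-fold, or without dim genes or the outermost rows and columns, and 5 with detection on 1 array. Median centring moved the list's median to 0.19, and the median of all genes to 0.22 for this comparison, 0.13 for calcitriol against vehicle and -0.09 for calcidiol against vehicle. Relative to that shift, the list's median stayed below that of all genes. The share of higher among all genes at least 2-fold apart was 55.7% after median centring and 37.1% as reported for calcitriol against vehicle, 55.4% and 24.9% for calcitriol against calcidiol, and 73.3% and 85.5% for calcidiol against vehicle. The cause of these movements was not tested. Dim signals limit C2, Cfi, Cfb, C4b and Cd55, for which no difference between 2 measured signals exists.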
